A study of Homo sapiens with 14 samples.

Results

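Genes of the splicing machinery were described in U2OS ER-E2F1 cells, a human osteosarcoma line that stably expresses the transcription factor E2F1 fused to a hormone-binding domain of the estrogen receptor, so that 4-hydroxytamoxifen (OHT) switches the fusion protein on. The genes were those whose symbol begins with HNRNP, SRSF, SNRP, SF3A, SF3B, U2AF or PRPF, and the brightest of the probe sets annotated to 1 gene alone stood for each. There were 58 such genes of 11963 named by such probe sets, read by 124 probe sets. A filter on low signals, set over all genes, kept 57 of them among 7720 genes tested. The one left out was the pseudogene HNRNPA3P1, whose signal lay between 2.37 and 44.8 on the 14 arrays. By role there were 19 hnRNP genes, of which 18 were tested, 9 SR protein genes, 11 genes of Sm, U1 and U2 snRNP proteins, 8 genes of the SF3A and SF3B complexes, 2 U2AF genes and 9 PRPF genes.

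All cells carried ER-E2F1 and were kept in serum-free medium, and each sample was hybridised to 1 Affymetrix array. With 20 nM OHT for 6 h there were 2 arrays of cells infected with the lentiviral hairpin shFOXO707, 2 with the hairpin shFOXO33 and 4 with a scrambled hairpin. Without OHT there were 1, 1 and 4 arrays of the same viruses, in the same order. Each FOXO hairpin targets both FOXO1 and FOXO3, forkhead transcription factors, so every FOXO1 knockdown was also a FOXO3 knockdown. Cells that lacked ER-E2F1 but received OHT were not analysed here, so the response to OHT cannot be told apart from a response to the drug itself. Nothing in the labels tells if replicate arrays came from separate cultures. The p-values therefore measure the spread between these arrays alone, part or all of which may be technical. In the fit that pools the 2 FOXO hairpins, this spread includes the difference between them, also for the response to OHT in scrambled cells.

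Splicing removes introns from nascent transcripts through the spliceosome, which is assembled from small nuclear ribonucleoproteins (snRNPs) and many other proteins. The U1 snRNP recognises the start of an intron, U2AF and the U2 snRNP with its SF3A and SF3B complexes recognise its end and branch point, and the U4/U6 and U5 snRNPs, with several PRPF proteins, complete the active complex. SR proteins mostly favour and hnRNPs often oppose the use of the exons they bind, and several of both families also limit their own expression through alternative splicing coupled to RNA decay.

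The arrays carried the labelled differences. FOXO1 signal averaged 236 with shFOXO707, 163 with shFOXO33 and 501 with the scrambled hairpin in the presence of OHT, and 39.1, 49.2 and 103 in its absence. FOXO3 averaged 810, 307 and 1793 with OHT in the same order of viruses, and 274, 138 and 449 without OHT. Log2 signals of arrays of the same group correlated at 0.9917 to 0.9937, against 0.8305 to 0.9727 between groups. The median signal of an array was 115 to 120.1 with OHT and 137.4 to 143.3 without OHT, although all arrays had been scaled to the same trimmed mean, and the median log2 change of all tested genes with OHT in scrambled cells was -0.23. Of the osteoblast markers, 5 of 10 passed the signal filter, among them COL1A1 and ALPL but not RUNX2 or SP7, and of the blood cell markers 2 of 9 did. Of the epithelial markers 3 of 5 passed (EPCAM, KRT8 and KRT18), and of the neural markers 3 of 5 (NEFL, TUBB3 and OLIG2), so these lists alone do not mark the cells as osteoblast. The summed signal of the osteoblast markers was 8405 in knockdown and 8841 in scrambled cells with OHT, against 9986 and 10843 without OHT, and that of the blood cell markers was 276 and 229 with OHT, against 237 and 239 without OHT. With OHT the summed signal of the epithelial markers was 4729 in knockdown and 5248 in scrambled cells, against 5904 and 7019 without OHT, and that of the neural markers was 10837 and 12037 with OHT, against 8737 and 9541 without OHT. The 3′ to 5′ signal ratio of the ACTB control probe sets was 1.598 to 1.741 in scrambled cells with OHT and 1.4999 to 1.588 without OHT. The part of these markers and ratios in the responses to OHT was not tested. In bulk RNA, fewer cells of a kind and less RNA per cell cannot be told apart.

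The first comparison asked how these genes respond to OHT in scrambled cells. Most hnRNP genes (11 of 18) were called higher, and so were 5 of 9 SR protein genes, or 4 with quantile normalization. On the probe sets that stood for them, HNRNPA0, HNRNPH3 and HNRNPDL were more than 2-fold up. The U2 snRNP genes were split between SNRPA1, which rose, and SNRPB2 and SF3A1, which fell. Of the 57 genes, 18 were called higher and 21 lower by limma, which is 31.6% and 36.8%. A call was a Benjamini-Hochberg adjusted p below 0.05 across every gene tested. The shares among all genes tested were 24% higher and 46.4% lower. The median log2 change of the 57 genes was -0.12. The split moved with the scaling. With each array centred on its median signal, 23 were higher and 10 lower, beside 30.7% and 32.5% of all genes, and with quantile normalization 17 were higher and 22 lower, beside 27.5% and 40.2%.

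Of the 18 hnRNP genes, 11 were called higher and 3 lower (61.1% and 16.7%), beside 24% and 46.4% of all genes, with a median log2 change of 0.56. Median centring gave 13 and 3, and quantile normalization gave 11 and 3. HNRNPA0, whose protein binds AU-rich RNA elements, had a signal of 3612, 3613, 3595 and 3541 in scrambled cells with OHT, against 1491, 1576, 1261 and 1291 without OHT. It rose 2.55-fold, a log2 change of 1.35 ± 0.07 (SE, adjusted p = 9.9e-10). HNRNPH3, a member of the hnRNP H/F family, had 3416, 3581, 3496 and 3180.4 with OHT, against 1483, 1440.3, 1365 and 1272 without OHT. Its log2 change was 1.29 ± 0.07 (SE, adjusted p = 1.58e-09). In both genes the lowest array with OHT was more than 2-fold above the highest without it on these probe sets. Their other probe sets rose less. HNRNPA0 probe set 201055_s_at had 2795 to 3034 with OHT, against 1461 to 1606 without OHT. For HNRNPH3, 207127_s_at had 2825 to 2948 with OHT, against 1556 to 1803 without OHT. In the same order, 210110_x_at had 2555 to 2737 against 1310 to 1754, and 210588_x_at had 2576 to 2663 against 1355 to 1570.

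HNRNPDL, which encodes the hnRNP D-like protein and splices its own transcript to limit its level, had 8054, 7143, 7328 and 7723 with OHT, against 3739, 3751, 3470.3 and 3589 without OHT. It rose by 1.05 ± 0.10 (SE, adjusted p = 4.33e-07) on the log2 scale. HNRNPF, which binds G-rich tracts near splice sites, had 2811, 2402, 2487 and 2562 with OHT, against 1397, 1324, 1297 and 1246 without OHT, a log2 change of 0.95 ± 0.08 (SE, adjusted p = 9.74e-08). Its close relative HNRNPH1 had 7899.7, 8350.1, 8069 and 7901 with OHT, against 4654, 4396, 4512 and 4902 without OHT, a change of 0.80 ± 0.05 (SE, adjusted p = 8.17e-09). The arrays of the 2 conditions did not overlap for any of these 5 genes, as the rule by which they were picked required. HNRNPAB, HNRNPU and HNRNPA2B1 rose by 0.74, 0.71 and 0.64 on the log2 scale, HNRNPUL2 by 0.57, HNRNPA3 by 0.54 and HNRNPD by 0.50. HNRNPU rose more on its probe set 200593_s_at, at 5954 to 6303 with OHT and 2685 to 2818 without OHT.

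The 3 hnRNP genes that fell were HNRNPA1, HNRNPUL1 and HNRNPR. HNRNPA1, the best known splicing repressor of the family, had 1269.5, 1262, 1399 and 1335 with OHT, against 2133, 2146, 1970.0 and 2123 without OHT, a log2 change of -0.66 ± 0.09 (SE, adjusted p = 1.61e-05). Its probe set may also read related sequences, since HNRNPA1 has many processed pseudogenes. HNRNPUL1 changed by -0.53 ± 0.11 (SE, adjusted p = 0.00069), and HNRNPR by -0.42 ± 0.07 (SE, adjusted p = 8.55e-05). HNRNPC, HNRNPK, HNRNPL and HNRNPM did not pass the test, with log2 changes of -0.12, 0.05, 0.06 and -0.06.

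Of the 9 SR protein genes, 5 were higher and 2 lower (55.6% and 22.2%), beside 24% and 46.4% of all genes. With median centring the counts were 5 and 1, and with quantile normalization 4 and 3. SRSF3, which also takes part in mRNA export, had 10487, 9965, 10676 and 10489 with OHT, against 7476, 7475, 7179 and 7345 without OHT, a log2 change of 0.50 ± 0.04 (SE, adjusted p = 1.1e-07). SRSF11, SRSF7 and SRSF8 rose by 0.49, 0.48 and 0.37. SRSF1, the founding member of the family, changed by 0.12 ± 0.05 (SE, adjusted p = 0.0286). Its probe set 201742_x_at did not rise, with 1686, 1498, 1403 and 1512 with OHT, against 1802, 1647, 1626 and 1660 without OHT. The arrays of its probe set 208863_s_at overlapped between the conditions. SRSF5 moved the other way and was the most reduced, with 1551, 1534, 1533 and 1549.7 with OHT, against 2863, 2639, 2685 and 2753 without OHT. Its log2 change was -0.82 ± 0.05 (SE, adjusted p = 6.27e-09), and the arrays did not overlap. SRSF4 fell by 0.33 on the log2 scale.

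Among the 11 snRNP protein genes, 1 was higher and 7 were lower (9.09% and 63.6%), beside 24% and 46.4% of all genes. Their median log2 change of -0.21 was close to that of all genes. Median centring left 2 higher and 2 lower, and quantile normalization gave 1 and 8. The proteins of SNRPA1 and SNRPB2 bind U2 snRNA as a pair. SNRPA1 had 4812, 5017, 5086 and 4355 with OHT, against 2386, 2736, 2634 and 2827 without OHT, and rose by 0.86 ± 0.10 (SE, adjusted p = 2.18e-06) on the log2 scale. SNRPB2 had 1746, 2027, 1720.4 and 1902 with OHT, against 2832, 3135, 3143 and 3068 without OHT, and changed by -0.72 ± 0.06 (SE, adjusted p = 2.84e-07). Neither gene's arrays overlapped between conditions, by the rule for picking genes. The Sm core genes that were called, SNRPB, SNRPD2, SNRPE, SNRPF and SNRPG, had log2 changes between -0.40 and -0.16, and SNRPC of the U1 snRNP changed by -0.19.

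Of the 8 SF3A and SF3B genes, whose products hold the U2 snRNP at the branch point, 5 fell (62.5%), beside 46.4% of all genes. Their median log2 change was -0.29, against -0.23 for all genes. With median centring 1 was higher and 3 were lower, and with quantile normalization 4 were lower. SF3A1 had 881, 1043, 901 and 941 with OHT, against 1610.2, 1407, 1581 and 1229.6 without OHT, a log2 change of -0.62 ± 0.09 (SE, adjusted p = 2.49e-05). SF3B4 changed by -0.52, SF3A2 by -0.44, SF3B5 by -0.39 and SF3B1 by -0.18. U2AF2, the large U2AF subunit that binds the pyrimidine tract, rose by 0.62 ± 0.14 (SE, adjusted p = 0.00128), and the small subunit U2AF1 was at -0.02 and did not pass the test.

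Of the 9 PRPF genes, 4 fell (44.4%), close to the 46.4% of all genes, and their median log2 change of -0.22 was close to the -0.23 of all genes. With median centring 1 was higher and 1 lower, and with quantile normalization 4 fell. PRPF39, whose yeast counterpart belongs to the U1 snRNP, had 222, 234, 187 and 189.6 with OHT, against 371, 389.7, 368 and 420.1 without OHT, a log2 change of -0.85 ± 0.09 (SE, adjusted p = 8.49e-07). PRPF4, a U4/U6 snRNP protein, had 374, 366, 376 and 380.2 with OHT, against 584, 614, 565 and 522 without OHT, a change of -0.59 ± 0.19 (SE, adjusted p = 0.0127). The arrays did not overlap for either gene, by the rule for picking genes. With median centring the change of PRPF4 was -0.39 with an adjusted p of 0.0738. PRPF31, which stabilises the same snRNP, and PRPF8, the core protein of the U5 snRNP, changed by -0.39 and -0.17. PRPF18, at 529 to 567 with OHT and 683 to 756 without it, was not called although its scrambled arrays did not overlap. The same held for SNRPA, at 1107 to 1131 with OHT and 1406 to 1489 without it. The error of this fit includes the difference between the hairpins.

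**Figure D1:**
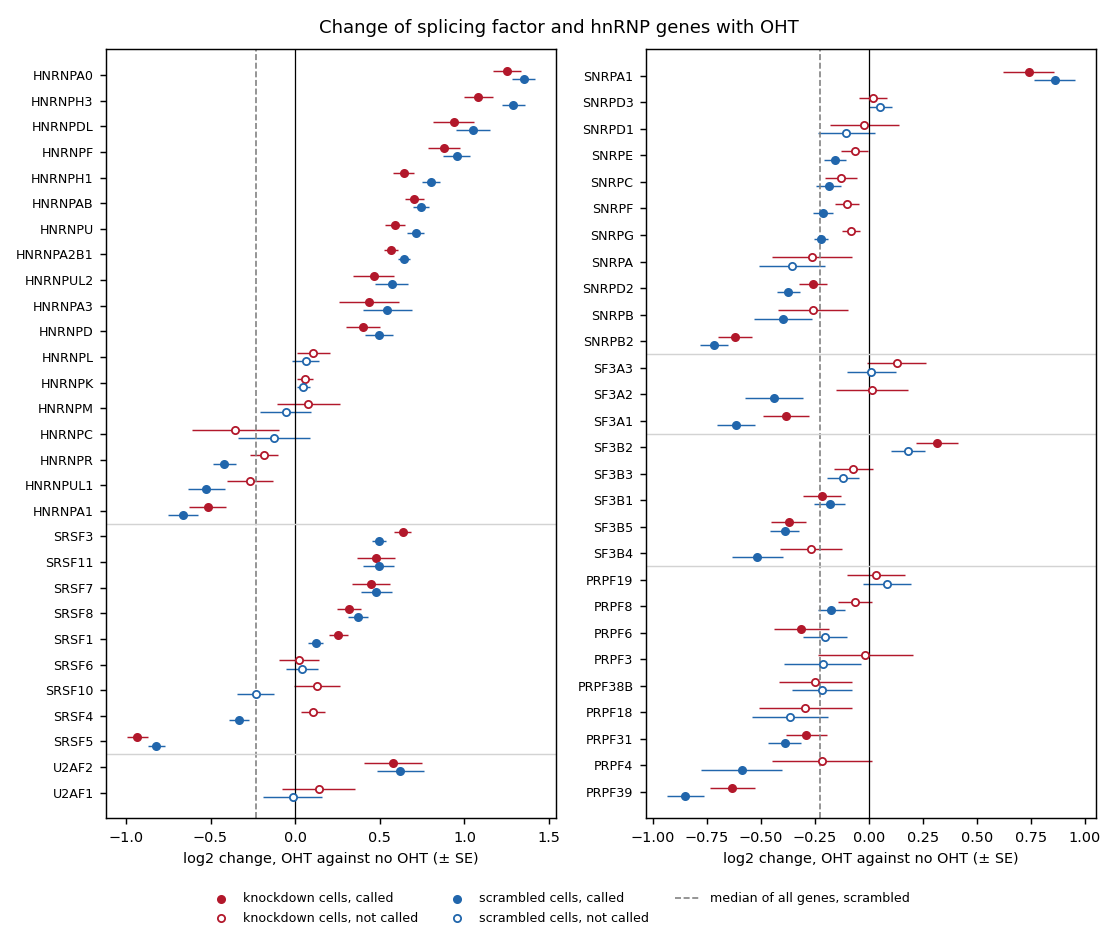
Log2 change with OHT (horizontal axis, ± SE) of the 57 tested genes in cells with a FOXO hairpin (red, upper point of each pair) and in scrambled cells (blue, lower point), with filled points for calls and a dashed line at the median of all genes in scrambled cells. HNRNPA0 lies furthest right, at 1.25 in knockdown and 1.35 in scrambled cells, and SRSF5 and PRPF39 lie furthest left.

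Promoters are printed for genes that moved in opposite directions with OHT, the U2 pair SNRPA1 and SNRPB2, the raised HNRNPDL and the lowered SF3A1 and SRSF5. These genes were chosen after their motif matches and values were seen, and every printed window holds a match. RefSeq promoter windows on GRCh38.p14, from 250 bases before to 50 after the transcript start, were available for 52 of the 58 genes. Each sequence below runs 5′ to 3′ on the gene's strand. Capitals mark matches on either strand to TTCCCGC, a variant of the E2F motif, or to CCGGAAG, the core of the motif bound by ETS factors.
HNRNPDL, chr4:82430176-82430475, minus strand: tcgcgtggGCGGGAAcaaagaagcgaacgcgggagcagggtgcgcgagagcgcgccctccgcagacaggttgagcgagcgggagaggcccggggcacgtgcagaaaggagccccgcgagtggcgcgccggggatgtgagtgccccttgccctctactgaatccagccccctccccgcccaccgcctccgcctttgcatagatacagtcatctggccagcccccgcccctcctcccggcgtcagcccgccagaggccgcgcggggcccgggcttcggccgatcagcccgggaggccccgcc
SNRPA1, chr15:101295199-101295498, minus strand: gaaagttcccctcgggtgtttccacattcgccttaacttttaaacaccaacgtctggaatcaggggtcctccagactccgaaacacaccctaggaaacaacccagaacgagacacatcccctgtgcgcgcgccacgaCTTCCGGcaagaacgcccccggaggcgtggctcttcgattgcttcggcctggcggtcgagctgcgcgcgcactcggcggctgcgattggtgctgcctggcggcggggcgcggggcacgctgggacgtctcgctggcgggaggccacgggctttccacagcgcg
SNRPB2, chr20:16729776-16730075, plus strand: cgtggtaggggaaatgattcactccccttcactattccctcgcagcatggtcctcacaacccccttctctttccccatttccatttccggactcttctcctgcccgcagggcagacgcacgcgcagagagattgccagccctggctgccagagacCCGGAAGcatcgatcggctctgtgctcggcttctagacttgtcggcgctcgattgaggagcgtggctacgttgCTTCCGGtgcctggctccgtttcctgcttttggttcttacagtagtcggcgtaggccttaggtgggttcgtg
SF3A1, chr22:30356845-30357144, minus strand: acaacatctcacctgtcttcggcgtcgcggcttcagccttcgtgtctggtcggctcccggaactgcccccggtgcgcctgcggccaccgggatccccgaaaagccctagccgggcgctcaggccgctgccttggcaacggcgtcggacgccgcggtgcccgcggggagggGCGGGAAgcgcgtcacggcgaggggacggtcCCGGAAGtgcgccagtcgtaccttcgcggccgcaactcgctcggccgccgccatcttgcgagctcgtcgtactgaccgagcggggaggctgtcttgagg
SRSF5, chr14:69766892-69767191, plus strand: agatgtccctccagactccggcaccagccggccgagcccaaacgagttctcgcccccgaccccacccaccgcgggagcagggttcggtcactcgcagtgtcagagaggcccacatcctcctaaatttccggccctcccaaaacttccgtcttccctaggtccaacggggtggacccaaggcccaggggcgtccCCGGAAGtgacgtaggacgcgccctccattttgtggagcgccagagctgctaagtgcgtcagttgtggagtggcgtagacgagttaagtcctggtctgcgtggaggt
In HNRNPDL the E2F variant begins at position -242 from the start, and in SF3A1 it begins at -80, with an ETS match at -49. SNRPB2 has ETS matches at -95 and -22, SRSF5 has one at -57, and SNRPA1 has one at -113. No 2 of the marked matches share bases, and binding to these windows was not measured here. The windows of HNRNPA0 and HNRNPH3, the most raised genes on the probe sets used, are not printed and held no match to either motif.

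Over the 52 windows, the ETS letters occurred in 19 (36.5%), against 19.6% of the windows of tested genes and 10.7% of all 27305 windows. They were present in 11 of 19 genes lowered by OHT, 4 of 18 raised and 4 of 15 not called. By family, 7 of 10 snRNP protein genes and 3 of 3 SF3A genes held them, against 2 of 17 hnRNP genes. The E2F variant occurred in 9 windows (17.3%), against 11.2% of tested genes and 6.56% of all windows, and it was in 2 of 18 raised and 4 of 19 lowered genes. The E2F motif TTGGCGC was in 1 window (1.92%), against 5.56% of tested genes and 3.12% of all windows. The FOXO motif TGTTTAC was in 0 of 52, against 2.16% of tested genes and 3.41% of all windows. These shares are descriptions with no test.

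Different probe sets of a gene can read different transcript ends or isoforms, and for some of these genes they moved in opposite directions. In a fit of all 22215 probe sets, 4 of 35 genes with at least 2 probe sets had some called higher and some called lower with OHT in scrambled cells, against 1.39% of all such genes. All 4 had at least 4 probe sets, a class that held 9 of the splicing genes and in which 4.04% of all genes were called both ways. The 4 genes were HNRNPD, HNRNPDL, SRSF7 and SRSF10. Among 33 genes with more than 1 probe set above the filter, the sign was shared by all of a gene's probe sets in 25. The matching share of all genes is not given.

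HNRNPD encodes AUF1, which binds AU-rich elements and promotes mRNA decay, and was read by 6 probe sets. Probe set 221480_at had 739.6, 747, 737 and 692 in scrambled cells with OHT, against 236, 225, 216 and 189.9 without OHT, a log2 change of 1.68. Probe set 213359_at had 261, 260.4, 218 and 237 with OHT, against 601, 564, 492 and 570.4 without OHT, a change of -1.14. These 2 probe sets thus changed in opposite directions with no overlap of arrays in either. The brightest probe set of the gene, used above, changed by 0.50. For HNRNPDL, 209068_at, 209067_s_at and 201993_x_at rose by 1.52, 1.33 and 1.05, and 212454_x_at fell by 0.28.

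SRSF7 probe sets 201129_at and 214141_x_at rose by 1.08 and 0.48, while 213649_at fell by 0.55. SRSF10, a splicing repressor when dephosphorylated, had 206095_s_at higher by 0.33 and 213594_x_at lower by 0.38, and its brightest probe set 210178_x_at was at -0.23 and not called. SRSF3 and HNRNPH1 also differed between probe sets, but in size. SRSF3 probe set 208673_s_at rose by 1.29, against 0.54 and 0.50 for the other two. HNRNPH1 rose by 1.36, 0.80 and 0.50 on 3 probe sets, and its dim probe set 213472_at was at -0.11 and not called in scrambled cells. In knockdown cells that probe set was called lower, at -0.73, so HNRNPH1 was called both ways there together with the same 4 genes. The share of all genes called both ways in knockdown cells is not given. Where the probes of a set lie within the transcripts was not analysed here.

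**Figure D2:**
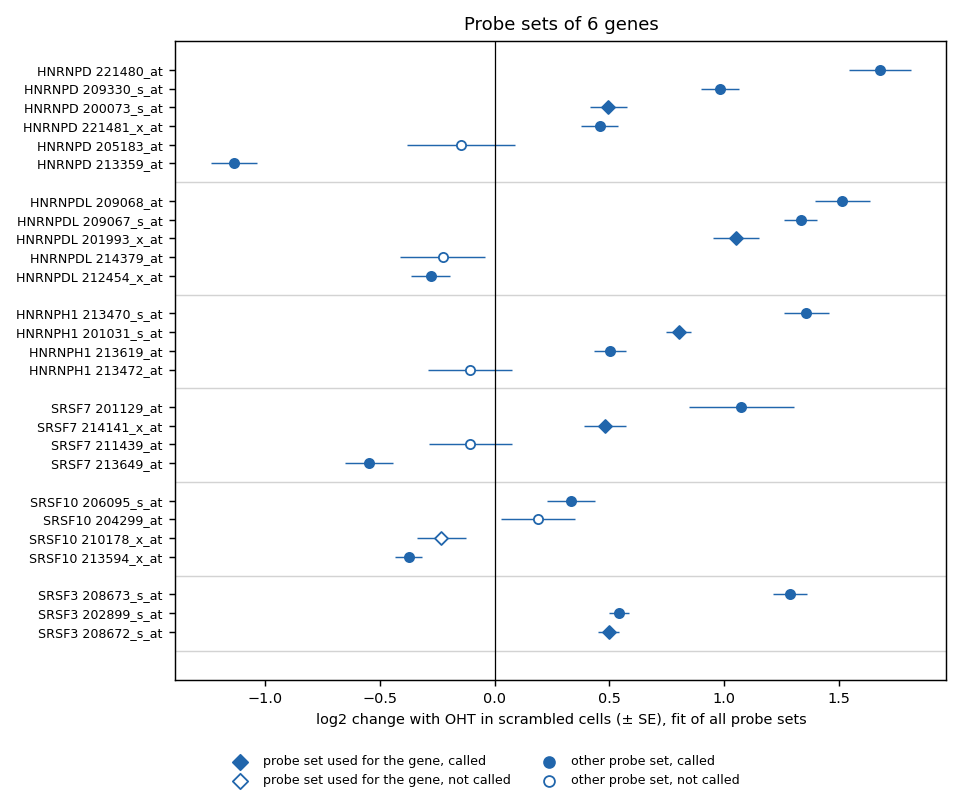
Log2 change with OHT in scrambled cells (horizontal axis, ± SE) for each probe set of 6 genes, with diamonds for the probe set that stands for the gene, circles for the others, and open symbols for those not called. In HNRNPD the probe sets span -1.14 to 1.68, and in SRSF3 all 3 lie above 0.

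In cells with either FOXO hairpin, OHT raised 19 of the 57 genes and lowered 10, or 33.3% and 17.5%, against 20.6% and 37.3% of all genes. With median centring the counts were 23 and 4, beside 26.2% and 25.5% of all genes. The median log2 change was 0.02, against -0.20 for all genes. HNRNPA0 had 3966 and 4113 with shFOXO707 and 4353 and 4108 with shFOXO33 in the presence of OHT, against 1676 and 1782 in its absence. Its log2 change was 1.25 ± 0.08 (SE, adjusted p = 3.98e-08). HNRNPH3, HNRNPDL and HNRNPF rose by 1.08, 0.94 and 0.88, and SRSF5, PRPF39, SNRPB2 and HNRNPA1 changed by -0.93, -0.63, -0.62 and -0.52.

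With OHT, 18 genes (31.6%) were called higher in both knockdown and scrambled cells, beside 19.5% of all genes, and 9 (15.8%) were called lower in both, beside 35.4%. A further 12 (21.1%) were called lower in scrambled cells alone, beside 11% of all genes. In knockdown cells alone SF3B2 was called higher and PRPF6 lower, where 1.11% of all genes were higher and 1.9% lower. The difference between the 2 responses was tested directly as an interaction, in which 0.0777% of all genes were called higher and 0.272% lower. Among the splicing genes, limma called 0 higher and 0 lower. At an unadjusted p under 0.05, 3 were higher and 0 lower, beside 5.87% and 4.66% of all genes. A fit that kept the hairpins as separate groups called 5 higher and 0 lower, beside 4.96% and 4.73%. The largest estimates were 0.45 for SF3A2 and 0.44 for SRSF4, with an adjusted p of 0.0654 for SRSF4.

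The next comparison set knockdown against scrambled cells, both with OHT. SF3A2, HNRNPR, SNRPB2, SNRPF, SRSF4 and PRPF39 were among the genes called higher in knockdown cells. SRSF5, SRSF8, HNRNPF and SNRPA1, the partner of SNRPB2 on U2 snRNA, were called lower. Not every SNRPA1 probe set was lower with both hairpins. Of the 57 genes, 13 were called higher and 4 lower (22.8% and 7.02%), against 14.7% and 8.01% of all genes, and the median of 0.05 was near that of all genes, 0.04. Kept as 6 groups, so that the spread between hairpins left the error, the arrays gave 23 higher and 9 lower, beside 26.4% and 20.7% of all genes. By family, 4 snRNP protein genes were higher and 1 lower, 3 of 8 SF3A and SF3B genes were higher, 3 hnRNP genes were higher and 1 lower, 2 PRPF genes were higher, and 1 SR protein gene was higher and 2 lower. The 4 lower calls fell to 1 without the scrambled OHT array 1 or the shFOXO33 OHT array 1, and to 2 without the scrambled OHT array 3 or 4. Of 33 genes with more than 1 probe set above the filter, 18 had the same sign on all their probe sets here, and 15 did not. The matching share of all genes is not given.

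SF3A2, a subunit that contacts the branch point region, had 596 and 592 with shFOXO707 and 619 and 652 with shFOXO33, against 435, 359, 470.0 and 442 with the scrambled hairpin. Its log2 change was 0.52 ± 0.14 (SE, adjusted p = 0.0156), and without the scrambled OHT array 2 it was 0.44 with an adjusted p of 0.0518. HNRNPR, which is related to SYNCRIP, had 5389 and 5306 with shFOXO707 and 6021 and 5814 with shFOXO33, against 3973, 4547, 4255 and 4291 with the scrambled hairpin, a change of 0.40 ± 0.07 (SE, adjusted p = 0.00115). Every hairpin array lay above every scrambled array for both genes, which were picked for lack of overlap.

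SNRPB2 had 2329 and 2129 with shFOXO707 and 2388 and 2224 with shFOXO33, against 1746, 2027, 1720.4 and 1902 with the scrambled hairpin, a log2 change of 0.29 ± 0.06 (SE, adjusted p = 0.00572). SNRPF, one of the Sm ring proteins, had 1758 and 1779 with shFOXO707 and 1739 and 1788 with shFOXO33, against 1438, 1421, 1475 and 1419 with the scrambled hairpin, a change of 0.29 ± 0.05 (SE, adjusted p = 0.000649). SRSF4 had 1293 and 1288 with shFOXO707 and 1196 and 1291 with shFOXO33, against 1046, 1004, 1006 and 1103 with the scrambled hairpin, a change of 0.28 ± 0.06 (SE, adjusted p = 0.00412). In all 3 genes the hairpin and scrambled arrays did not overlap, by the rule for picking genes. PRPF39 had 265 and 282 with shFOXO707 and 249 and 249.9 with shFOXO33, against 222, 234, 187 and 189.6 with the scrambled hairpin, a change of 0.31 ± 0.09 (SE, adjusted p = 0.0191). Its adjusted p was 0.0605 without the scrambled OHT array 3 and 0.0608 without array 4.

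SRSF5 had 1277 and 1249 with shFOXO707 and 1289.9 and 1299 with shFOXO33, against 1551, 1534, 1533 and 1549.7 with the scrambled hairpin, a log2 change of -0.27 ± 0.05 (SE, adjusted p = 0.00238). All hairpin arrays were below all scrambled arrays. SRSF8 had 2287 and 2433 with shFOXO707 and 2140.3 and 2040.4 with shFOXO33, against 2647, 2516, 2513 and 2537 with the scrambled hairpin, a change of -0.20 ± 0.06 (SE, adjusted p = 0.0251). Its arrays did not overlap either, but the adjusted p was 0.0535 to 0.0732 when the scrambled OHT array 1 or 4 or either shFOXO33 OHT array was left out. The other SRSF8 probe set, 213152_s_at, was lower with shFOXO33 alone. It had 637 and 636 with shFOXO707 and 474 and 466 with shFOXO33, against 631.1, 563, 600 and 630.9 with the scrambled hairpin. SNRPA1 and HNRNPF, both higher with OHT, were called lower in knockdown cells at -0.28 and -0.25 with overlapping arrays. SNRPA1 probe set 215722_s_at was lower with both hairpins, at 564 to 706 against 782 to 849 with the scrambled hairpin. Its probe set 216977_x_at was lower with shFOXO707 alone, at 1104 and 1108. There shFOXO33 had 1794 and 1569, against 1504 to 1604 with the scrambled hairpin. SF3A2, HNRNPR, SNRPB2, SRSF4, SNRPF and PRPF39 changed by -0.44, -0.42, -0.72, -0.33, -0.21 and -0.85 with OHT in scrambled cells, a comparison that shares the 4 scrambled OHT arrays with this one.

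Without OHT there was 1 array per hairpin, and 2 of the 57 genes were called higher and 0 lower, against 4.84% and 2.97% of all genes (limma). At an unadjusted p under 0.05 there were 5 higher and 3 lower (8.77% and 5.26%), beside 12.7% and 8.86% of all genes, and with 6 groups 9 and 8 were called, beside 15.4% and 15.3%. HNRNPH3 had 1769.5 with shFOXO707 and 2055 with shFOXO33, against 1483, 1440.3, 1365 and 1272 with the scrambled hairpin, a log2 change of 0.45 ± 0.08 (SE, adjusted p = 0.00548). HNRNPA0 had 1676 with shFOXO707 and 1782 with shFOXO33, against 1491, 1576, 1261 and 1291 with the scrambled hairpin, a change of 0.30 ± 0.08 (SE, adjusted p = 0.0437). On these probe sets both hairpin arrays were above all scrambled arrays for both genes, which were picked for lack of overlap. The other HNRNPA0 probe set, 201055_s_at, did not rise, with 1531 with shFOXO707 and 1441 with shFOXO33, against 1606, 1559, 1532 and 1461. Of the other HNRNPH3 probe sets, 210588_x_at separated the arrays in the same way, and those of 207127_s_at and 210110_x_at overlapped. Without the shFOXO33 array the adjusted p was 0.0533 for HNRNPH3 and 0.176 for HNRNPA0, and HNRNPA0 also lost its call without any one of 9 other arrays, at adjusted p of 0.0517 to 0.102.

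**Figure D3:**
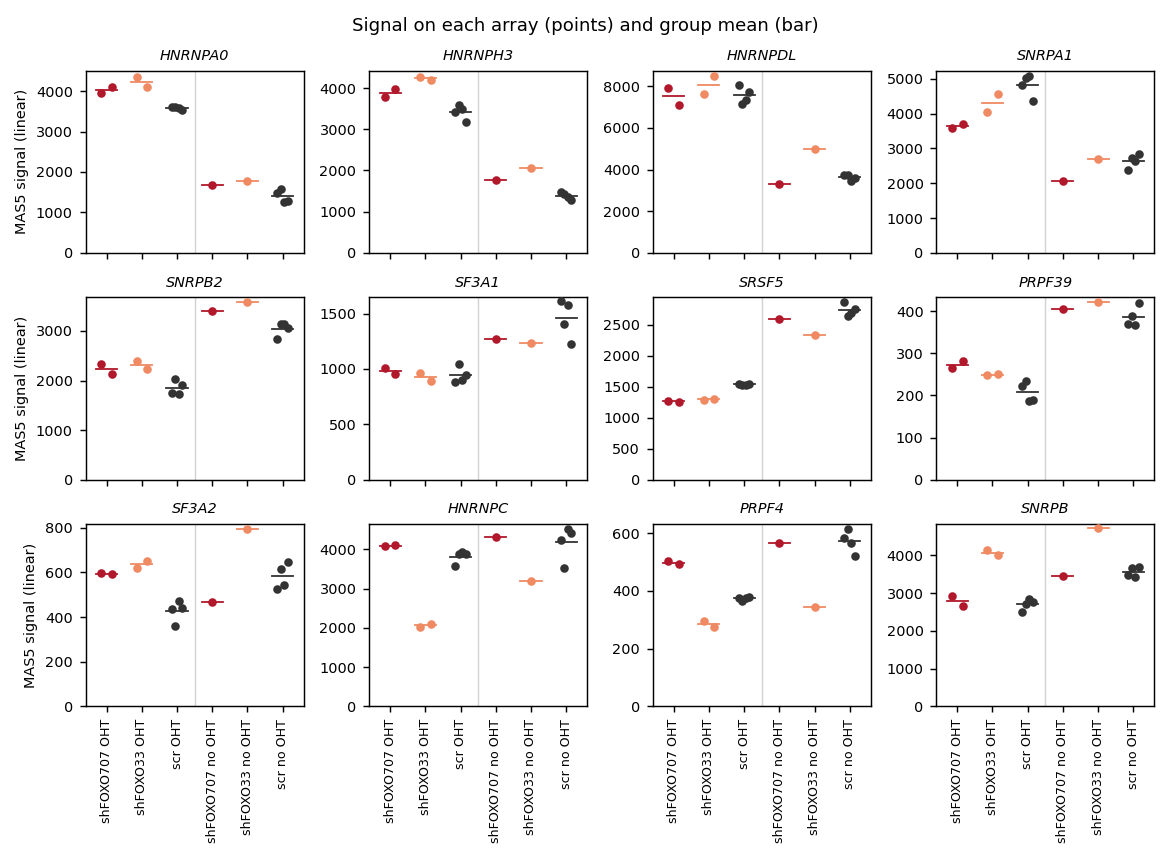
Signal of 12 genes on each array (points, linear MAS5 units on the vertical axis from 0) with group means as bars, for shFOXO707, shFOXO33 and scrambled cells with OHT and then without OHT. HNRNPA0 and HNRNPH3 separate by OHT, SF3A2 by hairpin in the presence of OHT, and HNRNPC and PRPF4 by which hairpin was used.

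Taken one at a time with OHT, shFOXO707 had 13 genes higher and 5 lower (22.8% and 8.77%) against scrambled cells, beside 24.6% and 17.2% of all genes. With median centring the counts were 8 and 9, beside 20.2% and 19.9% of all genes, and with quantile normalization 14 and 5, beside 23.4% and 17.5%. Without the shFOXO707 OHT array 2 there were 8 higher and 3 lower. For shFOXO33, 23 were higher and 10 lower (40.4% and 17.5%), beside 27.8% and 21.5% of all genes. Both comparisons use the same 4 scrambled arrays. SF3A2 changed by 0.47 with shFOXO707 and 0.56 with shFOXO33, HNRNPR by 0.33 and 0.47, SNRPF by 0.30 and 0.29, SNRPB2 by 0.27 and 0.32, and SRSF4 by 0.31 and 0.25 in the same order. SRSF5 was called lower with each, at -0.28 and -0.25. Of the 8 SF3A and SF3B genes, 1 was called higher with shFOXO707 and 6 with shFOXO33, and the test of shFOXO707 minus shFOXO33 called SF3B1 higher and SF3B2 and SF3B4 lower.

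PRPF4, SNRPD1 and HNRNPL, picked out after their values were seen, were called in opposite directions against those scrambled arrays on the probe sets used. The share of all genes called so is not given here. On PRPF4 probe set 209162_s_at, shFOXO707 had 213 and 260, overlapping the scrambled arrays at 194 to 227. On SNRPD1 probe set 202691_at, shFOXO33 had 423 and 417, within the scrambled arrays at 400 to 465. HNRNPL probe set 202072_at was lower with shFOXO707 and higher with shFOXO33, as before. PRPF4 changed by 0.40 with shFOXO707 and -0.37 with shFOXO33, SNRPD1 by 0.22 and -0.30, and HNRNPL by -0.12 and 0.16. The direct test of shFOXO707 minus shFOXO33 called 10 of the 57 genes higher and 12 lower (17.5% and 21.1%), beside 22.1% and 21.4% of all genes. With median centring it called 8 and 16, beside 20.5% and 23.3%. The higher calls fell to 5 without the shFOXO707 OHT array 2, and the calls fell to 6 higher and 7 lower without the shFOXO33 OHT array 2. The shares of called genes were close to or below those of all genes, except for the lower calls with median centring, at 28.1%.

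HNRNPC, which binds uridine tracts of nascent transcripts, differed most. It had 4077 and 4111 with shFOXO707, against 2032 and 2094 with shFOXO33, and 3565, 3889, 3920.2 and 3870.2 with the scrambled hairpin. The log2 difference between hairpins was 0.98 ± 0.09 (SE, adjusted p = 2.61e-07). All 4 of its probe sets were low with shFOXO33, at mean signals of 2077, 1957, 1364 and 2063, where shFOXO707 had 3787, 4067, 2808 and 4094 and scrambled cells had 3432, 3632, 2920 and 3811. The single arrays without OHT had 4322 with shFOXO707 and 3195 with shFOXO33, where scrambled cells had 4237, 3519, 4511 and 4418.

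PRPF4 had 503 and 493 with shFOXO707, against 296 and 275 with shFOXO33, a log2 difference of 0.77 ± 0.09 (SE, adjusted p = 3.77e-06). PRPF18, a factor of the second catalytic step, had 598 and 561 with shFOXO707, against 351 and 353 with shFOXO33, a difference of 0.69 ± 0.08 (SE, adjusted p = 2.68e-06). HNRNPM had 3217 and 3214 with shFOXO707, against 2029 and 2216 with shFOXO33, a difference of 0.60 ± 0.06 (SE, adjusted p = 3.95e-07). For PRPF18 and HNRNPM it was again the shFOXO33 arrays that lay below the scrambled arrays, at 532, 529, 554 and 567 and 3176, 2956, 3056 and 2947, whereas those of shFOXO707 overlapped with them or lay just above.

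In the other direction, PRPF3, the partner of PRPF4 in the U4/U6 snRNP, had 256 and 232 with shFOXO707, against 397 and 382 with shFOXO33, a log2 difference of -0.64 ± 0.14 (SE, adjusted p = 0.0018). SNRPA, which encodes a U1 snRNP protein, had 1077 and 1020.1 with shFOXO707, against 1570.3 and 1572 with shFOXO33, a difference of -0.58 ± 0.05 (SE, adjusted p = 4.81e-07). SNRPB, the Sm B protein, had 2935 and 2649 with shFOXO707, against 4138 and 4003 with shFOXO33, a difference of -0.54 ± 0.07 (SE, adjusted p = 8.1e-06). In these 3 genes too the shFOXO33 arrays stood apart from the scrambled ones, here above them. The scrambled arrays had 234, 257, 284 and 224 for PRPF3 and 1110.0, 1127, 1107 and 1131 for SNRPA. For SNRPB they had 2490.1, 2723, 2856 and 2769. In SNRPA the shFOXO707 arrays stood apart as well, below all scrambled arrays. SRSF10 differed by -0.39 ± 0.09 (SE, adjusted p = 0.00309), but by -0.03 with an adjusted p of 0.761 when its probe sets were averaged, and with an adjusted p of 0.056 without the shFOXO707 OHT array 2.

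The control probe sets for RNA quality differed between the hairpin groups. The 3′ to 5′ signal ratio of the ACTB control probe sets was 1.95 to 2.04 on the shFOXO707 OHT arrays, 1.60 to 1.63 on the shFOXO33 OHT arrays and 1.60 to 1.74 on the scrambled OHT arrays, and that of GAPDH was 0.983 to 1.11 on all 14. The part of these ratios in the hairpin differences was not tested.

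**Figure D4:**
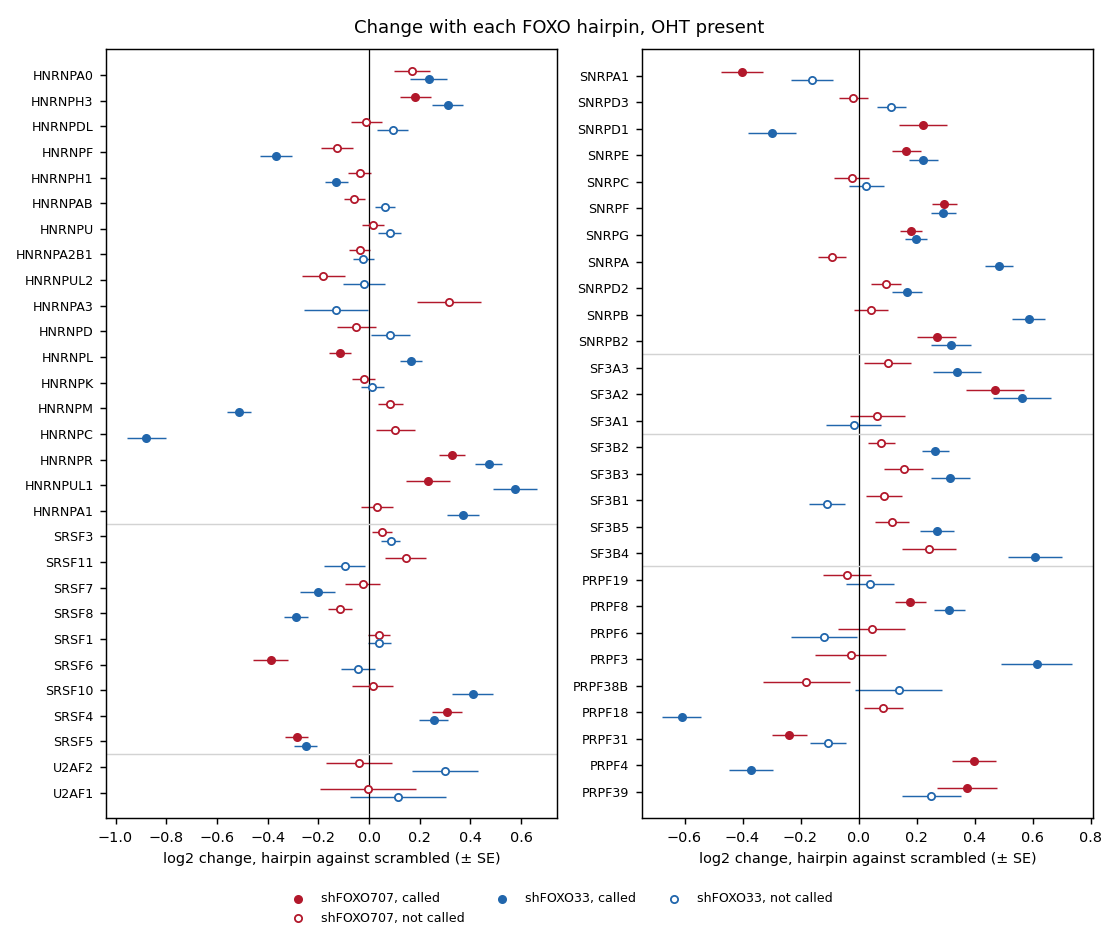
Log2 change with OHT present of each hairpin against scrambled cells (horizontal axis, ± SE) for the 57 genes, with shFOXO707 in red above shFOXO33 in blue and filled points for calls. HNRNPC lies at -0.88 with shFOXO33 and is not called with shFOXO707, and SF3A2 and HNRNPR lie right of 0 with both.

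Other genes of RNA splicing gave a context for these families. Of 58 further core spliceosome genes, 7 were higher and 37 lower with OHT in scrambled cells (12.1% and 63.8%), beside 24% and 46.4% of all genes. Their median was -0.39. With median centring 12 were higher and 23 lower (20.7% and 39.7%), beside 30.7% and 32.5% of all genes. DDX42 and SF1, the branch point binding protein, rose by 0.66 and 0.60, and RBM5 and CDC5L changed by -1.53 and -1.42. Of 10 snRNP assembly genes, 9 were lower (90%), or 7 with median centring (70%), with a median of -0.89. GEMIN2 and GEMIN6, subunits of the SMN complex that loads Sm proteins onto snRNA, changed by -1.43 and -1.36.

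Of 44 other splicing regulators, 7 were higher and 16 lower (15.9% and 36.4%), beside 24% and 46.4% of all genes. With median centring 13 were higher and 10 lower (29.5% and 22.7%), beside 30.7% and 32.5%. PTBP2 and QKI rose by 1.04 and 0.99, and MBNL2, a muscleblind splicing factor, and TIA1 changed by -3.13 and -1.34. Of 8 kinases of SR proteins, 3 were higher and 4 lower (37.5% and 50%), also with median centring. DYRK1A and SRPK1 rose by 1.57 and 0.85, and CLK4 and TOP1 changed by -1.47 and -1.32. Of 9 exon junction and nonsense-mediated decay genes, 4 were higher (44.4%), among them UPF1 at 0.82 and RNPS1 at 0.64. The 2 lower ones (22.2%) were RBM8A at -0.76 and SAP18 at -0.48.

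In knockdown against scrambled cells with OHT, 9 of the 58 core genes were higher and 4 lower (15.5% and 6.9%), close to the 14.7% and 8.01% of all genes, with LSM7 at 0.46, CDC5L at 0.43, SNRNP35 at -0.51 and SNRNP25 at -0.42. Among the snRNP assembly genes 3 were higher (30%), including WDR77, the methylosome protein, at 1.58 and GEMIN6 at 0.72. Among the regulators 6 were higher and 2 lower (13.6% and 4.55%), with CELF2 at 1.23, ACIN1 at 0.53, PTBP3 at -0.62 and SYNCRIP at -0.20. CLK4 was higher by 0.34, and SRPK1, EIF4A3 and RNPS1 were lower at -0.41, -0.28 and -0.21. The calls of SNRNP25, PTBP3, CLK4 and RNPS1 were lost when single arrays were left out, with adjusted p of up to 0.05003, 0.0723, 0.0732 and 0.11.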

How the data were processed

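Total RNA of 14 samples of U2OS ER-E2F1 cells was labelled with biotin and hybridised to 1 array each, per the labels' protocols. Linear intensities, 1 per probe set and array, were deposited by the authors, who used MAS5 according to the submitters' processing notes. The trimmed mean of every array, without 2% of probe sets at each end, was 500. Precision is limited by the number of arrays, as there is no sequencing depth.

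Of 22277 probe sets, 62 were controls, 19064 named 1 gene, 1043 several and 2108 none. A RefSeq gene table (GRCh38.p14) served to update 19052 symbols by Entrez identifier. The splicing families were named by 19 further probe sets that name several genes, which were left out, so SRSF2 and SRSF9, for example, were not analysed here. Values were log2(signal + 16), so changes of dim genes are understated. Probe sets with a mean log2 value above the 40th percentile of 1-gene probe sets (6.57, a signal of 79.1) were kept, and 11438 passed. The brightest stood for each gene, and levels of different probe sets were not compared.

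Tests used limma 3.58.1 in R 4.3.3 (lmFit, eBayes with a trend), two-sided, with Benjamini-Hochberg adjustment over 7720 genes and a threshold of 0.05. The fit had 4 groups with the hairpins pooled, so arrays of 1 hairpin counted as separate replicates. Single hairpins and their difference came from a fit of 6 groups, and all 22215 probe sets were fitted separately. The code was tested on simulated data.

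The genes, the other gene lists and the motifs were chosen with earlier results of these data known. Named genes were called and had no overlap of arrays between groups, with up to the 6 largest changes each way for OHT in scrambled cells and for knockdown with OHT, and up to 4 in the other comparisons. For the interaction and the hairpin difference overlap was not considered. Added were genes with probe sets called both ways, and up to 2 genes each way from each other list. Genes named beyond these, such as HNRNPAB, SRSF11 or SF3B4, were chosen after their values were seen. No scan date or batch was used.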

Additional observations from a re-analysis of the deposited data

Results flagged for a closer look

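In 52 sets of 4 arrays of a gene, the gap of the highest or lowest array to its neighbour was set against the range, and 2 sets held an array apart from the other 3, where chance would set apart about 1 in 20. HNRNPA1 had a signal of 1970.0 on 1 array of scrambled cells without OHT, below the other 3, which lay between 2123 and 2146. HNRNPC had 3565 on 1 array of scrambled cells with OHT, below the other 3, which lay between 3870.2 and 3920.2.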

How the results depend on the processing

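Of 73 results for single genes, 59 kept their direction and their side of the threshold under every alternative run, and SRSF10 alone turned its direction, to 0.33 with OHT in scrambled cells without probe sets ending in _x_at. Median centring gave 10 lower genes with OHT in scrambled cells, 4 lower with OHT in knockdown cells, 1 higher for knockdown without OHT, and 8 higher and 9 lower for shFOXO707. Knockdown without OHT had 1 higher gene with no filter and with no trend, and 1 lower gene with averaged probe sets. With 6 groups there were 19 lower genes for OHT in knockdown cells, 23 higher and 9 lower for knockdown with OHT, 9 and 8 for knockdown without OHT, and 5 higher for the interaction. With the shFOXO33 arrays alone the counts were 16 lower for OHT in knockdown cells, 24 and 10 for knockdown with OHT, 16 and 7 without OHT, and 2 and 2 for the interaction. With shFOXO707 alone they were 6 lower for knockdown without OHT and 2 higher for the interaction. Leaving out 1 array gave 1 to 4 lower genes for knockdown with OHT, 0 to 3 higher and 0 to 1 lower without OHT, 0 to 1 higher for the interaction, 8 to 15 higher and 3 to 5 lower for shFOXO707, and 5 to 10 higher and 7 to 14 lower for the hairpin difference. The lowest values for shFOXO707 came without its array 2, as did the 5, and the 7 came without the shFOXO33 OHT array 2. The replicate block gave 7 higher and 1 lower gene for knockdown with OHT, and it moved no other count by more than 1.5 times. Arrays with the same number deviated together at correlations of -0.0146 to 0.0469, and 4 of the 8 scrambled arrays correlated best with their own number, so the numbers were not taken as pairs. Shares of all genes are not given beside the counts of this section, and those shares also move with the setting, as shown above for 6 groups. These counts alone therefore do not set the splicing genes apart from all genes. The cause of the changes between settings was not tested.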
